A study of Homo sapiens with 4 samples.

Results

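The cytosolic ribosomal protein genes were taken by symbol: names made of RPL or RPS and a number, with the letter forms A, X and L, together with RPLP0, RPLP1, RPLP2, RPSA and FAU, and without RPS27L. This gave 85 of 34484 gene symbols, 52 with large subunit names and 33 with small subunit names, with 477 listed transcripts, all with an annotated coding sequence. Messenger RNA was sequenced from A549, a human cell line derived from an adenocarcinoma of the lung and widely used as a model of airway and alveolar epithelium. The dex group, 2 libraries, had received 100 nM dexamethasone, a synthetic agonist of the glucocorticoid receptor, for 3 h. The etoh group, also 2 libraries, had received 0.02% ethanol, the vehicle, for 3 h. Both groups were the same line grown to near confluence in F12K medium, and the labels do not tell whether replicates were cultured separately. The p-values therefore measure only how far these 4 libraries scatter, which could be technical scatter.

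Each ribosome holds a small subunit, which reads the mRNA, and a large subunit, which forms peptide bonds, and nearly every ribosomal protein is present in a single copy in it. The mRNAs of these proteins are among the most abundant of dividing cells, and most of them begin with a C followed by a tract of pyrimidines, the 5' terminal oligopyrimidine (TOP) tract, through which LARP1 and the mTORC1 pathway set how well they are translated and how stable they are. Paralogues such as RPL22L1 and RPL39L can replace their partners in the ribosome.

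Libraries held between 9764159 and 11887526 aligned reads. Of 8 genes known to be high in A549 cells (keratins, aldo-keto reductases, NQO1 and ALDH1A1), 8 were abundant in every library, and the keratins KRT8, KRT18 and KRT7 rose in dex. A list of 11 immune, endothelial, stromal, blood and liver genes summed to 28.0 and 28.5 CPM in dex and 17.7 and 25.3 CPM in etoh, with CD3E, VWF, COL1A2 and HBB at 0 reads throughout. The largest part of that sum was COL1A1, at 16.7 and 21.3 CPM in dex and 10.4 and 15.4 CPM in etoh. The part of these markers in the results was not tested. CPM are counts per aligned total of the library, scaled to the usual size of 1e6 reads. The glucocorticoid-induced genes FKBP5, TSC22D3 and PER1 followed the labels, with log2 fold changes of 3.36 (SE 0.11), 4.44 (SE 0.13) and 3.86 (SE 0.15).

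Start sequences of members are shown first because the TOP tract is a feature of most of the family that the choice by symbol did not use. RefSeq start sites on GRCh38.p14 were found for 67 of the 85 genes. Each line gives the 10 bases before and the first 20 bases after the annotated start on the transcribed strand, with the run of C and T that begins with a C at the first transcribed base in capitals where that run has at least 5 bases. Only windows that hold such a run are printed. The first 3 genes were higher in dex by the test described further on, and the next 5 were lower. RPL22 and the stalk genes RPLP0 and RPLP2 were not called.
RPS19 (chr19:41860245-41860274, plus strand): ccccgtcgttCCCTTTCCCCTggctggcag
RPLP1 (chr15:69452808-69452837, plus strand): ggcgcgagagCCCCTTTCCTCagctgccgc
RPS3 (chr11:75399508-75399537, plus strand): cgagccacttCCTTTCCTTTCagcggagcg
RPL39 (chrX:119791611-119791640, minus strand): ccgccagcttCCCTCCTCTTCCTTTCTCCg
RPL12 (chr9:127451387-127451416, minus strand): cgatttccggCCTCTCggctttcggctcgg
RPS27A (chr2:55232678-55232707, plus strand): ggcgttcttcCTTTTCgatccgccatctgc
RPL21 (chr13:27251548-27251577, plus strand): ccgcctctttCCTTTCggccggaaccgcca
RPL22L1 (chr3:170870176-170870205, minus strand): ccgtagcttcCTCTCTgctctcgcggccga
RPL22 (chr1:6199576-6199605, minus strand): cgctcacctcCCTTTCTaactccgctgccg
RPLP0 (chr12:120201092-120201121, minus strand): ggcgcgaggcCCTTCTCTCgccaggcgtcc
RPLP2 (chr11:809957-809986, plus strand): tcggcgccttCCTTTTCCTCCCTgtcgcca

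A run of this kind was at an annotated start in 48 of the 67 members with a start (71.6%), against 1404 of all 27305 genes with a start (5.14%). With the run allowed to begin up to 5 bases to either side of a start, 55 members (82.1%) and 25.2% of all genes held it. The tract was found at a start in 3 of 6 members called higher, 5 of 7 called lower and 40 of 53 that were tested and not called. With up to 5 bases allowed to either side, these counts were 5 of 6, 5 of 7 and 45 of 53. Genes of both directions thus carried it. Among called genes, RPL19, RPL3, RPS26, RPL27 and RPS29 had no such run at their annotated starts, and neither did the uncalled RPL26L1 and RPL7L1. This says only that no such run begins at the first transcribed base in these windows. Some of the windows, that of RPL27 among them, hold runs of C and T at other places.

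As a whole, the family took a small and similar part of the reads in both groups. In dex, 2.83% (exact 95% interval 2.82 to 2.84) and 2.64% (2.63 to 2.65) of aligned reads fell on ribosomal protein genes, against 2.55% (2.54 to 2.56) and 2.64% (2.63 to 2.65) in etoh. The means were 2.74 ± 0.136% in dex and 2.59 ± 0.0643% in etoh (SD, n = 2 each), a difference of 0.144 percentage points that was close to the spread within dex. Dex replicate 1 was the highest library and etoh replicate 1 the lowest, while the other 2 libraries were nearly equal. Without dex replicate 1 the difference was 0.0473 percentage points, and without dex replicate 2 it was 0.240. These intervals cover counting error only, and a change in RNA per cell cannot be told apart from a change in its share.

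**Figure D1:**
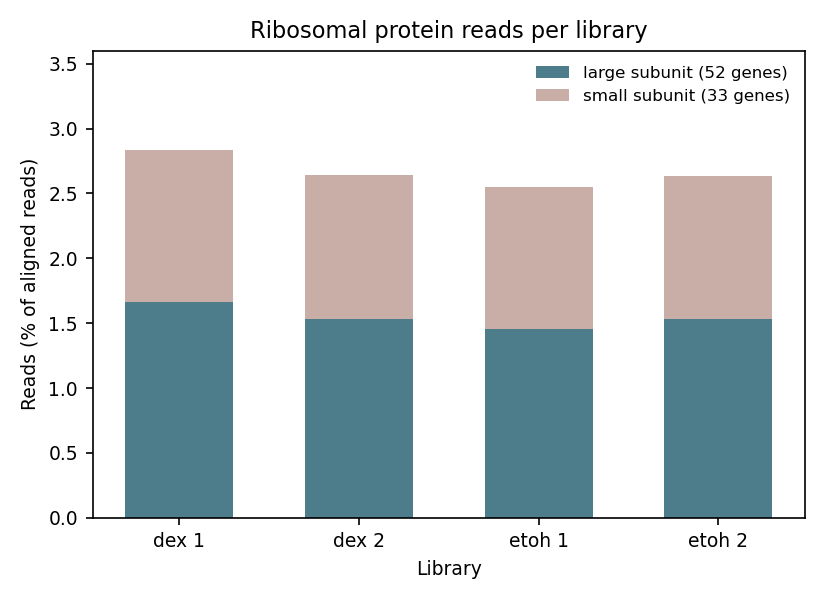
Reads of ribosomal protein genes in percent of the aligned reads of each library (y axis from 0), split into large subunit and small subunit names. Dex replicate 1 stands highest at 2.83% and etoh replicate 1 lowest at 2.55%, with the other libraries at 2.64%.

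Large subunit names took up 1.66% and 1.53% in dex and 1.46% and 1.53% in etoh. Small subunit names took up 1.17% and 1.11% in dex and 1.09% and 1.10% in etoh. The subunits kept a similar proportion in every library, with 58.7% and 58.0% of the family's reads on large subunit names in dex and 57.2% and 58.1% in etoh. On a per-length scale (TPM, in which reads of each transcript are divided by its length), the family summed to 6.82% and 6.52% of the total in dex and 6.32% and 6.49% in etoh.

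Single genes changed in both directions and by less than 2-fold. Of 83 members that passed the filter on low counts, 7 rose and 9 fell in dex at an adjusted p under 0.05 (quasi-likelihood test of edgeR, Benjamini-Hochberg adjusted over 14716 genes), and 67 did not pass. The 9 that fell include 2 symbols whose reads cannot be told apart, so they hold 8 distinguishable genes. RPL19 rose most, by 0.64 on the log2 scale (SE 0.12), and RPL22L1 fell most, by 0.61 (SE 0.14). Over all tested genes 6.66% were called higher and 5.04% lower, 11.7% in all, against 8.43% and 10.8% of the tested members, 19.3% in all. Among the 6262 genes at least as abundant as the least abundant tested member, 15.9% were called, 8.53% higher and 7.41% lower, close to the members' share. The median log2 fold change of the tested members was 0.07, beside -0.02 over all tested genes, with 50 members above 0 and 33 below. At an unadjusted p under 0.05 there were 18 higher and 15 lower members.

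The calls rest mainly on 2 of the 4 libraries. Without dex replicate 1, 3 members were higher, RPL19 and RPS19 among them, and 1 lower (RPL27), and without etoh replicate 1, only RPL19 was higher and only RPL27 lower in that fit. Without dex replicate 2, 15 were higher and 12 lower, and without etoh replicate 2, 10 were higher and 8 lower. Over all genes, 7.62% were called without dex replicate 1, 13.8% without dex replicate 2, 6.46% without etoh replicate 1 and 10.2% without etoh replicate 2. DESeq2 called 3 members higher, RPL19 and RPS26 among them, and 7 lower, against 6.8% of all genes that it gave an adjusted p.

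**Figure D2:**
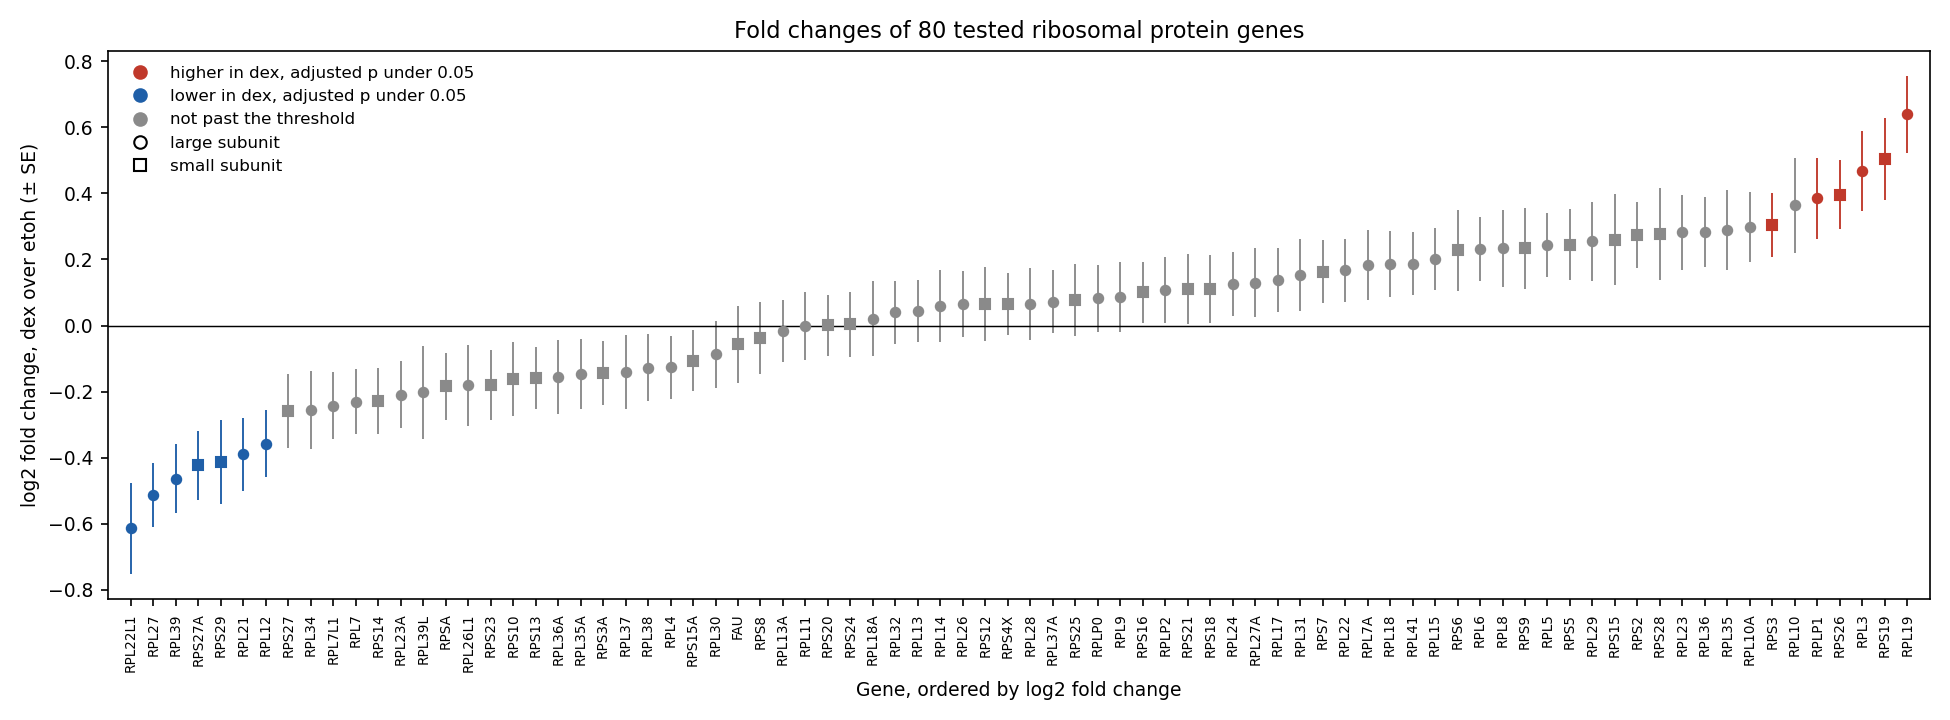
Log2 fold change of dex over etoh with its standard error for 80 of the 83 tested ribosomal protein genes, ordered along the x axis; circles are large subunit and squares small subunit names. The values run between -0.61 (RPL22L1) and 0.64 (RPL19), with 7 called genes (blue) at the low end and 6 (red) at the high end, where RPL10 stands uncalled (grey).

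RPS19, RPS26 and RPS3 were among the small subunit genes that rose. RPS19, needed to mature the small subunit and the gene most often mutated in Diamond-Blackfan anaemia, had 350 and 318 CPM in dex, against 192 and 279 CPM in etoh (0.50 on the log2 scale, SE 0.12, adjusted p = 0.00807 by edgeR). The groups did not overlap, but the etoh libraries of RPS19 differed from each other more than dex replicate 2 differed from etoh replicate 2. DESeq2 did not call RPS19. RPS26, which lines the channel where mRNA leaves the ribosome, had 203 and 178 CPM in dex and 134 and 155 CPM in etoh (0.40, SE 0.10, adjusted p = 0.0134 by edgeR). RPS3, at the mRNA entry channel and also a DNA repair protein, had 369 and 318 CPM in dex and 272 and 284 CPM in etoh (0.30, SE 0.10), the smallest change among the called members, with an adjusted p of 0.0450 by edgeR. Among the alternatives that kept every library, RPS3 was not called with the replicate number as a block or with DESeq2. Nor was it called with only the largest transcript of each gene or at an adjusted p of 0.01. Its call also did not hold in every fit that left out a library.

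The small subunit genes that fell include a ubiquitin precursor. RPS27A, made as a fusion of ubiquitin with a ribosomal protein, had 232 and 273 CPM in dex, against 363 and 315 CPM in etoh (-0.42 on the log2 scale, SE 0.10, adjusted p = 0.00732 by edgeR). All 4 of its listed transcripts were lower in both dex libraries than in both etoh libraries. Reads shared by transcripts were spread over them, so this largely repeats the count of the gene. RPS29, a small zinc-binding protein, had 117 and 155 CPM in dex and 204 and 158 CPM in etoh (-0.41, SE 0.13, adjusted p = 0.0338 by edgeR). For RPS29, dex replicate 2 and etoh replicate 2 nearly met, at a log2 ratio of -0.03, and the gene was not called with TMM factors, DESeq2 or limma.

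**Figure D3:**
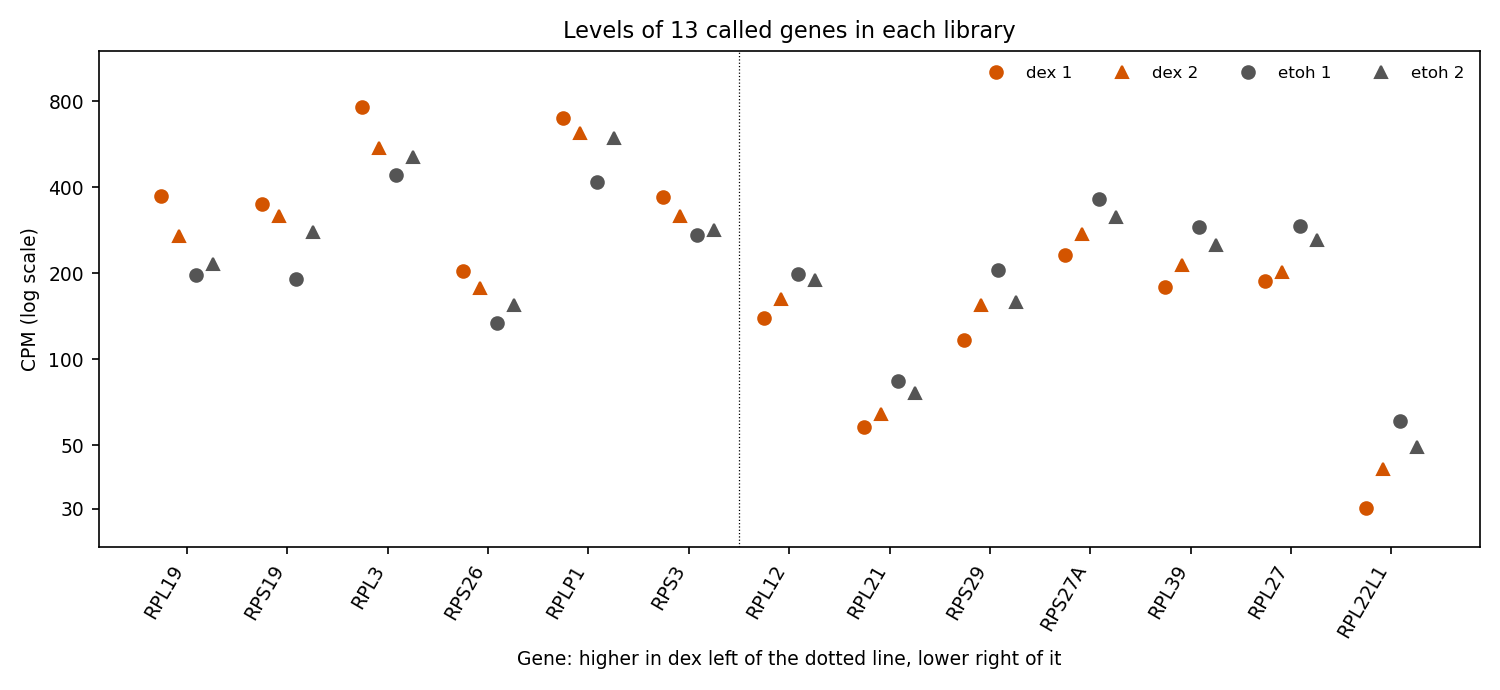
CPM on a log axis in each library for 13 of the 16 called ribosomal protein genes, dex in orange and etoh in grey, replicate 1 as circles and replicate 2 as triangles. In the 13 genes the circles lie farther from the other group than the triangles do.

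Among large subunit genes, RPL19 and RPL3 rose. RPL19, which reaches towards the small subunit and helps to bridge the subunits, had 373 and 271 CPM in dex, against 198 and 215 CPM in etoh (0.64 on the log2 scale, SE 0.12, adjusted p = 0.000468 by edgeR). It was called in each fit that left out a library, with log2 fold changes of 0.39 without dex replicate 1 and 0.85 without dex replicate 2. It lies at chr17:39200283-39204732 on the plus strand (GRCh38, GENCODE 29). Its 4 longer transcripts were all higher in dex, but shared reads were spread over them, so they are not separate observations. The 402-base transcript RPL19-007, with 3.63% of the gene's reads, had 7.33 and 8.35 CPM in dex and 11.1 and 11.1 CPM in etoh. RPL3, which lies near the peptidyl transferase centre, had 765 and 548 CPM in dex, against 442 and 508 CPM in etoh (0.47, SE 0.12, adjusted p = 0.0113 by edgeR). Dex replicate 1 of RPL3 stood well above the other 3 libraries, and the log2 ratio of dex replicate 2 to etoh replicate 2 was 0.11.

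RPL27, RPL39, RPL12 and RPL21 fell. RPL27 (chr17:42998273-43002959, plus strand), a protein of the solvent side, had 187 and 201 CPM in dex, against 293 and 262 CPM in etoh (-0.51, SE 0.10, adjusted p = 0.000659 by edgeR). Its dex libraries were close together and well apart from etoh, and its log2 fold change lay between -0.59 and -0.43 when each library was left out. RPL39, a very small protein that lines the exit tunnel of the nascent chain, had 179 and 213 CPM in dex and 290 and 251 CPM in etoh (-0.46, SE 0.10, adjusted p = 0.0039 by edgeR). Stretches of 36 bases shared with another listed gene, RPL39L among them, make up 27% of the RPL39 transcript, so some RPL39 reads may belong elsewhere. RPL12, at the base of the stalk, had 140 and 162 CPM in dex and 199 and 189 CPM in etoh (-0.36, SE 0.10), and RPL21 had 57.8 and 64.2 CPM in dex and 83.9 and 76.1 CPM in etoh (-0.39, SE 0.11).

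The acidic stalk recruits elongation factors and consists of RPLP0, RPLP1 and RPLP2. RPLP1 had 698 and 620 CPM in dex, against 415 and 593 CPM in etoh (0.39, SE 0.12, adjusted p = 0.0418 by edgeR). Etoh replicate 1 stood apart from the other 3 libraries, and RPLP1 was called neither without that library nor without dex replicate 1. RPLP0, the scaffold of the stalk and a common reference gene in quantitative PCR, had 722 and 635 CPM in dex and 589 and 693 CPM in etoh (0.08, SE 0.10, adjusted p = 0.685 by edgeR). RPLP2 had 326 and 389 CPM in dex and 331 and 332 CPM in etoh (0.11, SE 0.10). The groups overlapped for RPLP0 and RPLP2, and whether the 3 stalk genes differed from each other was not tested.

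Of 6 paralogues that stand outside the core set, 4 were tested; these 4 had log2 fold changes below 0, and 1 was called. RPL22L1, whose partner RPL22 is a large subunit protein that also binds RNA outside the ribosome, had 30.1 and 41.2 CPM in dex, against 60.5 and 49.2 CPM in etoh (-0.61, SE 0.14, adjusted p = 0.00377 by edgeR). RPL22 had 293 and 267 CPM in dex and 245 and 254 CPM in etoh, at 0.17 (SE 0.09, adjusted p = 0.301 by edgeR). RPL22L1 thus held 9.31% (exact 95% interval 8.32 to 10.4) and 13.4% (12.3 to 14.6) of the reads of the pair in dex, and 19.8% (18.4 to 21.3) and 16.3% (15.1 to 17.5) in etoh. The libraries did not overlap between groups in this share, whose means were 11.3 ± 2.88% in dex and 18.0 ± 2.52% in etoh (SD, n = 2 each). All 5 listed transcripts of RPL22L1 had between 52 and 131 reads per library. RPL22L1 shares almost no 36-base stretches (0.464%) with other listed genes, but it was called neither without dex replicate 1 nor without etoh replicate 1. With only the largest transcript of each gene RPL22L1 was not called, and the share differed by -1.74 instead of -6.68 percentage points. That setting kept 21.2% of the RPL22L1 reads but 83.5% of the RPL22 reads, so the share was lower in both groups. The 2 differences are therefore not on the same scale.

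RPL39L, RPL26L1 and RPL7L1 did not pass the test. RPL39L had 45.9 and 66.3 CPM in dex and 71.5 and 58.2 CPM in etoh (-0.20, SE 0.14), and its groups overlapped. It held 20.4% and 23.8% of the reads of the RPL39 pair in dex and 19.8% and 18.9% in etoh. RPL26L1 had 32.2 and 32.2 CPM in dex and 37.4 and 35.7 CPM in etoh (-0.18, SE 0.12), and RPL7L1, a protein of ribosome assembly, had 125 and 142 CPM in dex and 164 and 152 CPM in etoh (-0.24, SE 0.10). RPL3L, the muscle form of RPL3, had 4 and 7 reads in dex and 4 and 5 in etoh, and RPL10L, the testis form of RPL10, had 2 and 1 in dex and 0 and 2 in etoh, so both fell below the filter.

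The most abundant members had small fold changes. By CPM these were RPS4X, RPL7, RPL4, RPS7, RPL7A, RPS23, RPS2 and RPL41, and none of the 8 was called, with 3 of them below 0. RPS4X, the X-linked form of a small subunit protein, had 1440 and 1426 CPM in dex and 1414 and 1325 CPM in etoh (0.07, SE 0.09). RPS2 had 886 and 815 CPM in dex and 648 and 760 CPM in etoh, at 0.27 (SE 0.10, adjusted p = 0.0828 by edgeR). RPS2 was called higher by limma, with no count filter, without dex replicate 2 and without etoh replicate 2. RPL7 had 1100 and 1143 CPM in dex and 1411 and 1220 CPM in etoh, at -0.23 (SE 0.10, adjusted p = 0.145 by edgeR). On the per-length scale the tested members ranged between 43.1 and 2438 TPM (means over the 4 libraries), with a median of 597 TPM and with RPL41, the shortest ribosomal protein, at the top. RPLP1 at 2341 TPM and RPL7 at 2252 TPM came next.

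Members with other known roles were also among those not called. RPS6, the substrate of the S6 kinases, had 839 and 625 CPM in dex and 553 and 697 CPM in etoh (0.23, SE 0.12), with overlapping groups. RPL5, which together with RPL11 binds MDM2 when ribosome assembly fails, had 553 and 495 CPM in dex and 427 and 458 CPM in etoh (0.24, SE 0.10). RPL10, placed late in large subunit assembly, had overlapping groups, with 871 and 639 CPM in dex and 468 and 704 CPM in etoh (0.36, SE 0.14, adjusted p = 0.111 by edgeR), and was called higher with the replicate number as a block. RPSA, which also acts as a laminin receptor, was at -0.18 (SE 0.10), with 302 and 288 CPM in dex and 367 and 303 CPM in etoh. FAU, a ubiquitin-like fusion precursor, was at -0.06 (SE 0.12), with 75.3 and 60.4 CPM in dex and 70.6 and 70.4 CPM in etoh. Stretches of 36 bases shared with other listed genes make up 66.3% of RPS10 (the read-through gene RPS10-NUDT3 and RPS10P7). They make up 81% of RPL36A (RPL36A-HNRNPH2 and RPL36AL) and 34.9% of RPSA. The counts of these genes are uncertain to at least that extent. The shared part was also counted against all other GENCODE 29 genes, listed or not. It was then 83.4% in RPS10, 81% in RPL36A and 70.3% in RPSA. Among called genes named here it was 66.4% in RPL12, 59% in RPL21, 58.7% in RPS27A, 54.7% in RPL3, 44.5% in RPL39 and 42.9% in RPL19. It was 38.3% in RPS29, 31.9% in RPS26, 20% in RPL27, 15.4% in RPS3, 14.9% in RPLP1, 5.42% in RPS19 and 2.69% in RPL22L1.

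The order of the libraries was the same in each of the 16 called genes. How often called genes outside the family had this order was not counted. Dex replicate 1 lay farther from the mean of etoh than dex replicate 2 did, and etoh replicate 1 lay farther from the mean of dex than etoh replicate 2 did, in 16 of 16. The log2 ratio of dex replicate 1 to dex replicate 2 was between 0.14 and 0.48 in the 7 genes that rose and between -0.45 and -0.11 in the 9 that fell. The log2 ratio of dex replicate 2 to etoh replicate 2 was between 0.06 and 0.33 in the 7 genes that rose. In the set of 9 it was between -0.38 and -0.03. Its sign was that of the call in all 16, which was fixed because the groups of the called members did not overlap. Over the 83 tested members the median absolute log2 ratio was 0.31 between dex replicate 1 and etoh replicate 1. It was 0.11 between dex replicate 2 and etoh replicate 2, 0.17 within dex and 0.14 within etoh. Over all tested genes these medians were, in the same order, 0.29, 0.18, 0.17 and 0.16. Groups did not overlap in 53 of the 83 members (63.9%), against 53.4% of all tested genes and 60.3% of those at least as abundant.

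**Figure D4:**
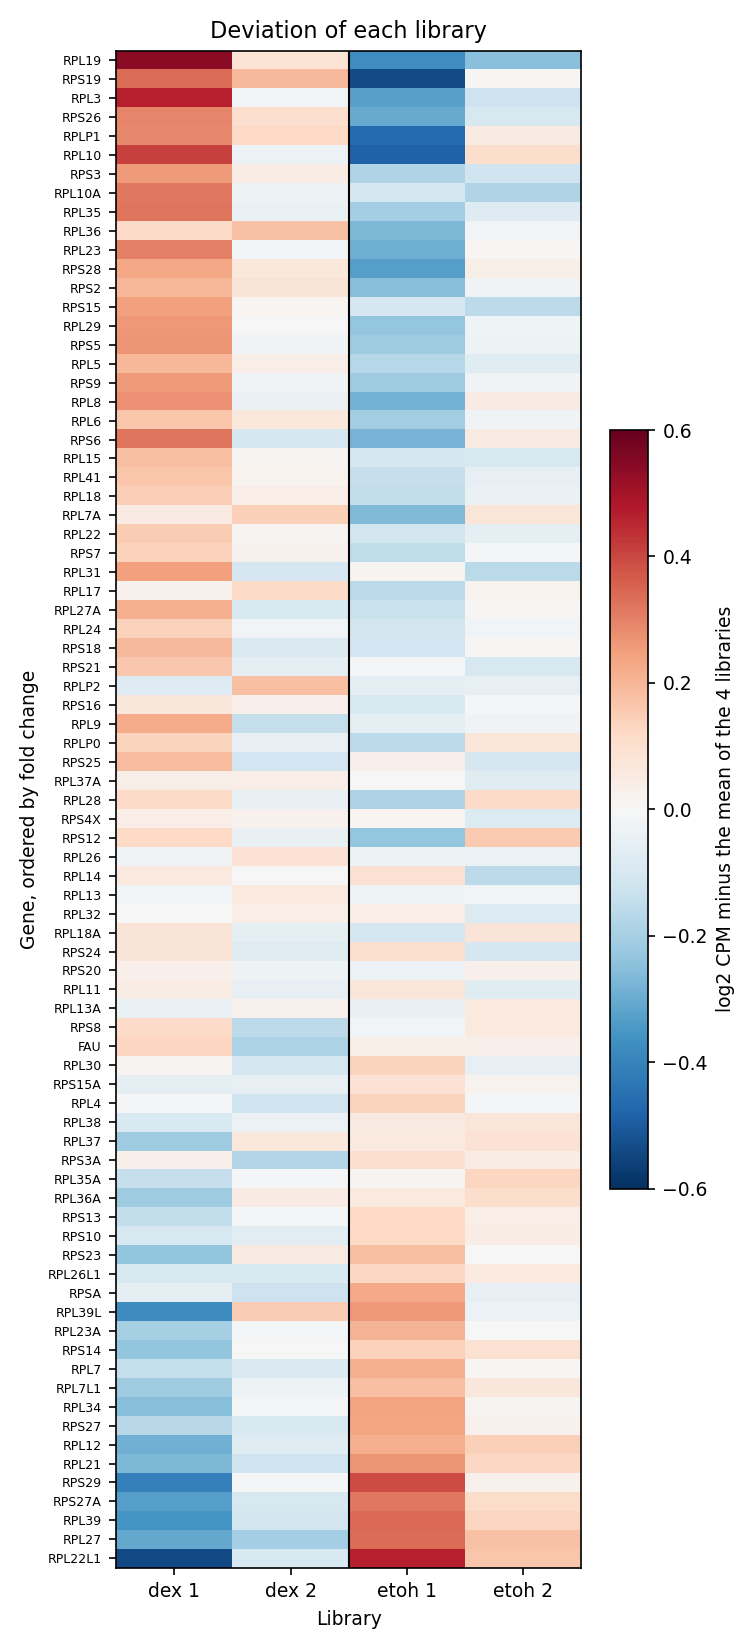
Colour map of log2 CPM minus the mean of the 4 libraries for 80 of the 83 tested ribosomal protein genes (rows, ordered by fold change) in each library (columns, dex left of etoh). The strongest colours stand in dex replicate 1 and etoh replicate 1, with opposite signs, and the second replicates are paler.

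GC content moved with these differences. It was taken from the most-read transcript in GENCODE 29 for 81 tested members, 65 of which had the length that the files list. GC content was 45.2 to 56.7%, median 53.6%, in the 7 genes that rose, and 42.7 to 52.3%, median 46.6%, in 8 of the 9 that fell, against a median of 49.5% over the 81. Across the 81 genes, which share the 4 libraries and are not independent, Spearman's rho between GC content and the log2 fold change was 0.39 and Pearson's r 0.40, and rho was 0.33 across all 13806 tested genes with a value. Within groups, rho of GC content with the log2 ratio of replicate 1 to replicate 2 was 0.30 in dex and -0.41 in etoh across the members. Across all tested genes with a value it was 0.27 in dex and -0.29 in etoh. With a curve on GC content removed from each library, an alternative chosen after the data were seen, 8 members were higher and 8 lower against 11.1% of all genes called, and 7 of the 7 and 8 of the 9 original calls stayed, RPS29 being lost.

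**Figure D5:**
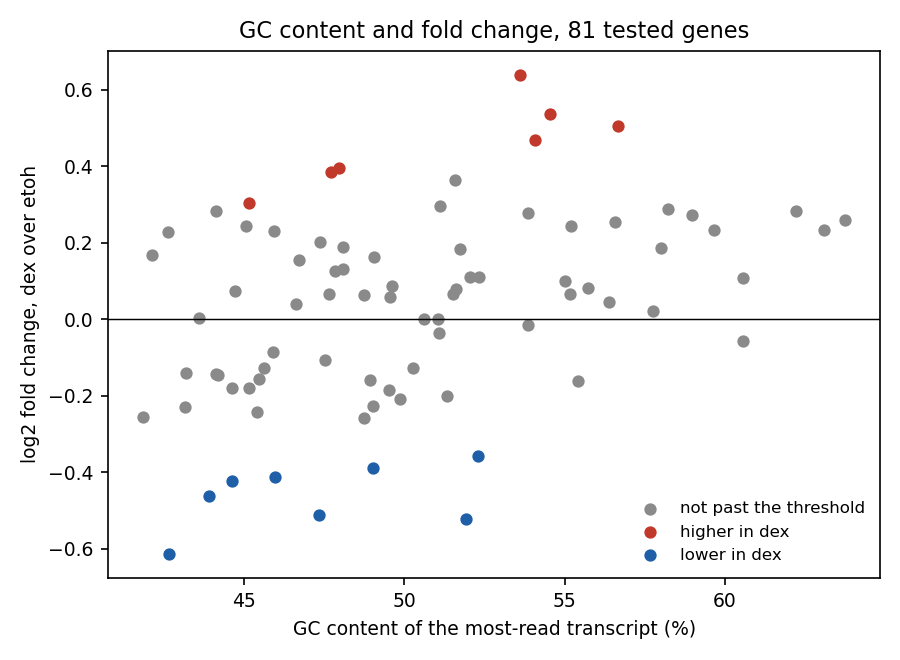
GC content of the most-read transcript (x axis, %) against the log2 fold change of dex over etoh (y axis) for 81 tested ribosomal protein genes, with called genes in colour. Genes with higher GC content tended to higher fold changes (rho 0.39), with wide scatter.

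Other genes of translation were read from the same fit. Of 24 tested mRNAs from a list of other TOP transcripts, 0 rose and 1 fell, and the median log2 fold change was 0.04. Over all tested genes 6.66% rose and 5.04% fell, with a median of -0.02, and the counts of the other lists stand against the same background. EIF3E, a subunit of initiation factor 3, was the gene that fell, with 279 and 313 CPM in dex and 390 and 377 CPM in etoh (-0.37, SE 0.10, adjusted p = 0.0103 by edgeR). EEF1A1, the elongation factor that delivers tRNA and a classical TOP mRNA, had 7106 and 6215 CPM in dex and 6739 and 6134 CPM in etoh (0.05, SE 0.10), and the nucleolar protein NPM1 was at 0.03 (SE 0.10). Of 45 ribosome assembly genes, 0 rose and 2 fell, with a median of -0.08. These were NOLC1, a nucleolar scaffold, at 127 and 130 CPM in dex and 162 and 160 CPM in etoh (-0.32, SE 0.10), and the helicase DDX10, at 40.7 and 41.3 CPM in dex and 49.9 and 57.0 CPM in etoh (-0.38, SE 0.12).

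Of 32 genes of RNA polymerases I and III, 0 rose and 2 fell, with a median of 0.02. POLR1D, a subunit shared by both enzymes, had 32.97 and 37.3 CPM in dex and 46.8 and 47.9 CPM in etoh (-0.43, SE 0.12), and TWISTNB, a subunit of polymerase I, had 37.8 and 43.0 CPM in dex and 58.7 and 49.5 CPM in etoh (-0.42, SE 0.12). Among 32 genes of translation initiation and its control, 5 rose and 2 fell, with a median of 0.02. EIF2AK3, the kinase PERK that lowers initiation under endoplasmic reticulum stress, had 53.1 and 55.1 CPM in dex and 28.4 and 28.3 CPM in etoh (0.93, SE 0.12, adjusted p = 3.3e-06 by edgeR). DDIT4, an inhibitor of mTORC1, had 137 and 125 CPM in dex and 80.6 and 73.9 CPM in etoh (0.76, SE 0.10, adjusted p = 1.21e-05 by edgeR). The other 3 genes that rose were EIF4G1, EEF2K and RPS6KB2. EIF4G1, the scaffold of the cap-binding complex, was at 0.41 (SE 0.11, adjusted p = 0.0135 by edgeR). EEF2K, the kinase that inhibits elongation factor 2, was at 0.48 (SE 0.11, adjusted p = 0.00469 by edgeR). The S6 kinase RPS6KB2 was at 0.53 (SE 0.16, adjusted p = 0.0288 by edgeR). The genes that rose thus include both promoters and inhibitors of translation, but the promoters EIF4G1 and RPS6KB2 had the largest adjusted p of the 5. Over these 4 lists, 5 genes were higher and 7 lower in all, against 9 and 14 without dex replicate 2, 3 and 3 without dex replicate 1, and 2 and 2 without etoh replicate 1. The replicates of EIF2AK3 and DDIT4 lay close together in both groups. EIF4G2, an initiation factor of cap-independent translation, had 1579 and 1819 CPM in dex and 2440 and 2311 CPM in etoh (-0.48, SE 0.10), and EIF4E, which binds the mRNA cap, had 71.5 and 78.7 CPM in dex and 116 and 96.5 CPM in etoh (-0.50, SE 0.11). The changes of these regulators were measured as RNA, and translation itself was not.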

How the data were processed

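Raw read counts per transcript were deposited, 1 file per library, and the authors' tools were CASAVA, Bowtie, SAMtools and DESeq2, per the submitters' processing notes; their versions and settings, the build, the annotation and strandedness were not given in the sources used here. Unaligned reads, 17.2 to 18.7% of a library, were left out. Reads were summed over all transcripts of a gene symbol, because reads shared by transcripts were spread over them (a tested member's most-read transcript held a median of 31.3% of its reads), and scaled to the aligned total. edgeR 4.0.16 in R 4.3.3 (quasi-likelihood, filterByExpr with a minimum count of 10, two-sided) was fitted to all genes and tested on simulated data. The SE is the absolute log2 fold change divided by the square root of F. Alternatives included TMM, DESeq2 1.42.0 and limma 3.58.1. No pair of libraries was a duplicate: chi-square over degrees of freedom was 5.83 within dex and 7.62 within etoh. Members and lists were chosen with earlier results of these data known. Named genes were the 8 most abundant members, called members, the 4 largest changes each way, stalk genes, RPSA, FAU, the paralogues, and up to 4 called genes of each other list (or the 2 most abundant and any call); RPL22, RPL10, RPS6, RPL5, RPS10, RPL36A, EIF4G1, EEF2K and RPS6KB2 were added after their values were seen. Some members are counted in the totals but are not reported here by name.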

Additional observations from a re-analysis of the deposited data

How the results depend on the processing

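No member's called log2 fold change turned round under any alternative run. In all 16 called members the groups did not overlap, so leaving out a single library could not turn the sign. Main counts were 7 members higher and 9 lower, with 5 higher and 7 lower in the other translation lists. Members higher numbered 11 with no count filter, 3 with DESeq2, 4 with the largest transcript per gene, 3 at an adjusted p of 0.01 (5 lower), and 1 to 15 when single libraries were left out (1 to 12 lower). The members' median log2 fold change was then -0.0090 to 0.0906, and the summed share differed by 0.0473 to 0.240 percentage points. In the other lists, 3 were lower with DESeq2, 3 higher with the largest transcript, 3 higher and 2 lower at 0.01, and 2 to 9 higher and 2 to 14 lower without single libraries. With the largest transcript, the RPL22L1 share was lower in both groups and differed by -1.74 instead of -6.68 percentage points. The replicate number as a block gave 7 higher and 9 lower members, with RPS3 lost and RPL10 gained; deviations of same-numbered libraries had a correlation of -0.113, and the crossed block, added after seeing the data, gave 19 and 15 members (11 and 18 in the other lists), with 2637 instead of 1721 calls over all 14716 genes. The GC curve gave 4 lower in the other lists, and with the replicate block 11 members higher (9 and 4 in the other lists). The cause of these differences was not tested. TMM factors lay between 0.986 and 1.02 and gave 7 higher and 8 lower. Coding transcripts alone gave the same 7 and 9 members. Since 0 member reads fell on other transcripts, leaving out the member with most of them was not run. What depth limits was not tested.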
